A study of Mus musculus with 2 samples.

Results

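The type I interferon response genes described here are 39 mouse genes chosen by name, of the 25943 genes measured in single bone marrow cells. All 39 were present among the measured genes and all 39 had UMIs (unique molecular identifiers, which count captured mRNA molecules) in both libraries. The marrow came from wild-type male mice aged 8 to 10 weeks. There was 1 library of control marrow and 1 from mice in the middle cerebral artery occlusion (MCAO) model, in which an artery of the brain is blocked to produce a stroke. Whole marrow from tibias and femurs, with red cells lysed and no sort, was captured on the BD Rhapsody microwell system. How many animals went into a library, how long after the operation they were killed and whether controls had sham surgery were not stated in the labels.

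Type I interferons are cytokines released when a cell senses foreign or misplaced nucleic acid. They bind a receptor made of Ifnar1 and Ifnar2, whose kinases activate transcription factors that include Stat2. With Irf9, Stat2 is part of a complex that binds the interferon-stimulated response element, a DNA motif with a repeated GAAA core, and switches on the response genes. Their products sense viral RNA, block its translation, degrade it or change membranes and nucleotides that viruses need. Some neutrophils of healthy mice are known to carry these transcripts in the absence of infection.

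There were 5212 control cells (median 3344 UMIs) and 5398 MCAO cells (median 4952 UMIs). Cell types were not part of the files used, and cells were therefore clustered and named from marker genes, with the 39 genes and 134 other interferon-inducible genes left out of the clustering. The level of a gene is its summed UMIs per 10000 UMIs of a class, and brackets give 95% intervals that cover counting error only. UMIs count molecules at their 3′ ends, so levels were not divided by gene length. With 1 library per group no test between the conditions is possible, and a difference between the libraries cannot be told apart from a difference between animals or preparations. A difference was called when the levels differed at least 1.5-fold.

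The promoters show the sequence that names the pathway, and they are printed for genes of high level in mature neutrophils that hold it, 1 per gene family, with the near-identical Ifit3 and Ifit3b pair. RefSeq promoters on GRCm38.p6 were matched for 29 of the 39 genes, and 250 bases upstream of each start were searched on both strands for the core of the response element, GAAA followed by any 2 bases and GAAA again. On the opposite strand it reads TTTC, any 2 bases and TTTC. Matches are in capitals, and each line runs 5′ to 3′ on the strand of the gene, so that the last base lies next to the transcription start.
Rsad2: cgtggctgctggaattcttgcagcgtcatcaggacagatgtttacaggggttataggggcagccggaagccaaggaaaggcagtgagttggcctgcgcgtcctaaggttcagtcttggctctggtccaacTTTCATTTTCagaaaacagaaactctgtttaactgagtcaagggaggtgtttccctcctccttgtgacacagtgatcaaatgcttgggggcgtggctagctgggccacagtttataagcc
Ifit3: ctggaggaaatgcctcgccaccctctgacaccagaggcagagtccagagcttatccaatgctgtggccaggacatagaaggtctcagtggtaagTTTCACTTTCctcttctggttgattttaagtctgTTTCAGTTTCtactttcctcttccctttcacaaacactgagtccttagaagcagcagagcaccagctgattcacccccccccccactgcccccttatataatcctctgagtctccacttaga
Ifit3b: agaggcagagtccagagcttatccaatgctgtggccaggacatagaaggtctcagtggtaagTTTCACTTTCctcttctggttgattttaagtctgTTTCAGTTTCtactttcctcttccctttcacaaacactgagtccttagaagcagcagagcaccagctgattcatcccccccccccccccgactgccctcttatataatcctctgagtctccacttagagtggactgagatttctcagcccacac
Trim30a: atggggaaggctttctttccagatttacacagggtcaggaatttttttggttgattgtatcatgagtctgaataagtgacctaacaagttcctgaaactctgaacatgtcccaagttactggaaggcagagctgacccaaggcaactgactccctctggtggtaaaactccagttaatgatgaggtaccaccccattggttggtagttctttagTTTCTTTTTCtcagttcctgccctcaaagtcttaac
Oas3: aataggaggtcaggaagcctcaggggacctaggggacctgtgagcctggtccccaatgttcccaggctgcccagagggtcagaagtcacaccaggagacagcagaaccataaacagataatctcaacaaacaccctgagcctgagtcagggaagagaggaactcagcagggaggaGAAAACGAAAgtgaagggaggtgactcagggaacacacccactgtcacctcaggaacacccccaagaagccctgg
Isg15: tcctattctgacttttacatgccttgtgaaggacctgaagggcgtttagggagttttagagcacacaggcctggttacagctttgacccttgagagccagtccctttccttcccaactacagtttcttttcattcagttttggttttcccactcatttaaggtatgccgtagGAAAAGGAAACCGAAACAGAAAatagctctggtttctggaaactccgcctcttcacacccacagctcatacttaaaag

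The Rsad2 window is chr12:26456453-26456702, minus strand, with its match ending 110 bases before the start. The Ifit3 window is chr19:34583279-34583528 and the Ifit3b window chr19:34607707-34607956, both plus strand with 2 matches, and they share an unbroken run of 169 bases that holds both matches. The Trim30a window (chr7:104465194-104465443, minus strand) has its match 26 bases before the start. Trim30a has a second start in the table whose window holds no match. The Oas3 window (chr5:120777660-120777909, minus strand) has its match 65 bases before the start, and the Isg15 window (chr4:156200819-156201068, minus strand) has 3 overlapping matches, the nearest 56 bases before it.

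The core was found in 12 of the 29 matched genes (41.4%), against 3.46% of the 27025 genes with a promoter in the table. The 12 were Ifit1, Ifit3, Ifit3b, Isg15, Rsad2, Oas3, Oas1a, Stat2, Trim30a, Bst2, Phf11b and Cxcl10. The gamma-activated sequence TTCNNNGAA, which reads the same on both strands, was found in 5 of 29 (17.2%), against 8.13% of genes. A match describes letters in the window and is not a bound site. The genes lie on 15 chromosomes, and several lie close together: the Ifit genes within chr19:34550694-34650009, Oas1a, Oas2 and Oas3 within chr5:120730333-120907521, Oasl1 and Oasl2 within chr5:114896936-114937915, Rsad2 and Cmpk2 on chromosome 12, Phf11b and Phf11d on chromosome 14, and Parp9 and Parp14, and Mx1 and Mx2, on chromosome 16. Gene positions are those of GENCODE M21 on the same build. For the related copies Ifit3 and Ifit3b, Oasl1 and Oasl2, Phf11b and Phf11d, and for Oas1a and Trim30a, which have close relatives outside the list, the split of reads between copies is uncertain. Another annotated gene overlaps 15 of the 39 on the same or the opposite strand and none overlaps the other 24. The overlapped genes include Irf7, Irf9, Rtp4, Parp9 and Cxcl10, and the use of strand in counting was not given in the sources used here.

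Among the 12 classes that reached 50 cells in both libraries, mature-neutrophil-like cells held the highest summed level of the 39 genes in both libraries and basophil-like or promyelocyte-like cells the lowest. In mature-neutrophil-like cells the genes together took 148 UMIs per 10000 [147 to 149] in control cells and 100 [99.4 to 101] in MCAO cells. Along the neutrophil series the control level was 31.6 in promyelocyte-like, 35.8 in pre-neutrophil-like and 61.6 in immature-neutrophil-like cells, and the MCAO levels were 21.9, 24.9 and 48.2. The order of these stages was thus the same in both libraries, with mature cells highest.

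Outside the neutrophil series the control level was highest in macrophage-like cells at 109 [106 to 112] and monocyte-like cells at 101 [99.6 to 102]. The MCAO levels of these 2 classes were 72.1 [69.3 to 75] and 67.0 [66.4 to 67.6]. Plasmacytoid-dendritic-like cells, the blood cells best known for making type I interferon, held 91.1 [89.1 to 93.2] in control and 73.7 [72.2 to 75.3] in MCAO. This class was mixed: at resolution 2, 25.3% of its control and 37.8% of its MCAO cells fell in a conventional-dendritic-like cluster. The plasmacytoid-dendritic-like cluster at that resolution (115 and 117 cells) held 102 [99.7 to 105] and 91.4 [88.9 to 93.8], and the conventional one (54 and 77 cells) 84.9 and 61.1. In the MCAO library plasmacytoid-dendritic-like and macrophage-like cells had overlapping intervals. The lymphoid classes followed, with 80.4 and 63.1 for B-cell-like, 61.9 and 41.9 in B-precursor-like (the class named from pro-B and pre-B markers) and 55.1 and 42.0 in T-cell-like cells. Erythroid-like cells held 50.3 in control and 35.9 in MCAO. In basophil-or-mast-like cells the level was 29.7 [27.9 to 31.7] in control and 26.5 [24.5 to 28.6] in MCAO, with overlapping intervals, and in the other 11 classes the intervals of the libraries were apart. In 4 classes with fewer cells the libraries were not compared. Their summed levels were 48.3 and 38.4 (eosinophil-like, 25 and 20 cells) and 36.0 and 25.8 (plasma-cell-like, 10 and 6 cells). NK-cell-like cells (36 and 41) held 38.1 and 32.2, and stromal-like cells (4 and 3) held 51.8 and 34.3.

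**Figure D1:**
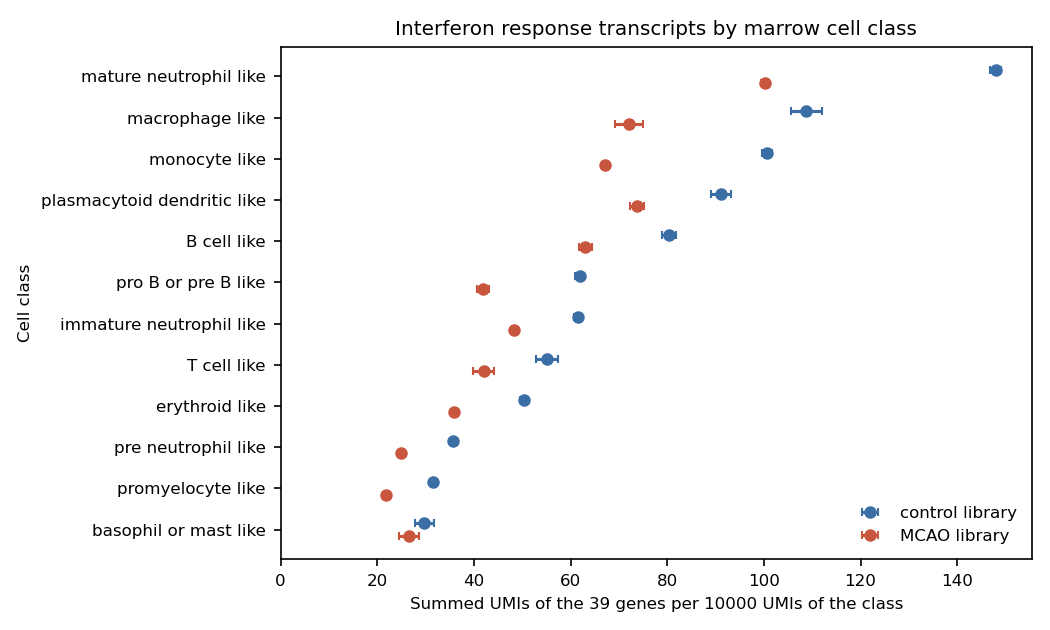
Summed UMIs of the 39 genes per 10000 UMIs (horizontal axis) in 12 marrow cell classes, with the control library in blue and the MCAO library in red; bars are 95% Poisson intervals. The mature-neutrophil-like class stands highest in both libraries, at 148 and 100, and the MCAO point lies to the left in every class.

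The genes did not share 1 cell type. In the control library 13 of the 39 had their highest level in mature-neutrophil-like cells, 8 each in macrophage-like and monocyte-like cells, 5 in B-cell-like, 3 in plasmacytoid-dendritic-like and 1 each in erythroid-like and B-precursor-like cells. In the MCAO library the counts were 11, 7, 5, 6, 7, 2 and 1 in the same order. The highest class was the same in both libraries for 23 genes. For many genes the intervals of the highest and the next class overlapped, so these counts include near ties. In control Usp18 held 1.15 in mature-neutrophil-like and 1.14 in monocyte-like cells, and Parp9 1.27 in B-precursor-like and 1.25 in B-cell-like cells. Ifit1, Ifit3, Ifit3b, Oasl1, Oasl2, Oas3, Rsad2, Rtp4 and Cmpk2 were highest in mature-neutrophil-like cells in both libraries, with intervals apart from the next class.

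Bst2, a membrane protein that tethers budding virus and marks plasmacytoid dendritic cells in mice, had a level of 18.6 [17.6 to 19.5] in control and 14.9 [14.2 to 15.6] in MCAO plasmacytoid-dendritic-like cells. In the plasmacytoid-dendritic-like cluster at resolution 2 Bst2 held 26.2 [24.8 to 27.6] and 25.1 [23.8 to 26.4], with a ratio interval that includes 1. Macrophage-like cells came next at 4.19 and 2.57, and the lowest Bst2 levels, 0.435 and 0.356, were those of mature-neutrophil-like cells. Sp100, a nuclear body protein, was highest in B-cell-like cells at 15.3 in control and 12.7 in MCAO. In MCAO its interval overlapped that of T-cell-like cells (11.8). Ifi27l2a, a small mitochondrial and membrane protein gene, was highest in mature-neutrophil-like cells in control (19.9, against 18.3 in monocyte-like cells) and in monocyte-like cells in MCAO (11.8, against 10.9). For Isg15, a ubiquitin-like modifier, the control levels of 3.76 in mature-neutrophil-like and 3.6 in erythroid-like cells had overlapping intervals. In MCAO Isg15 was highest in erythroid-like cells, at 2.69 against 2.13. Irf7 was highest in macrophage-like cells in control at 5.14 and in plasmacytoid-dendritic-like cells in MCAO at 3.58.

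**Figure D2:**
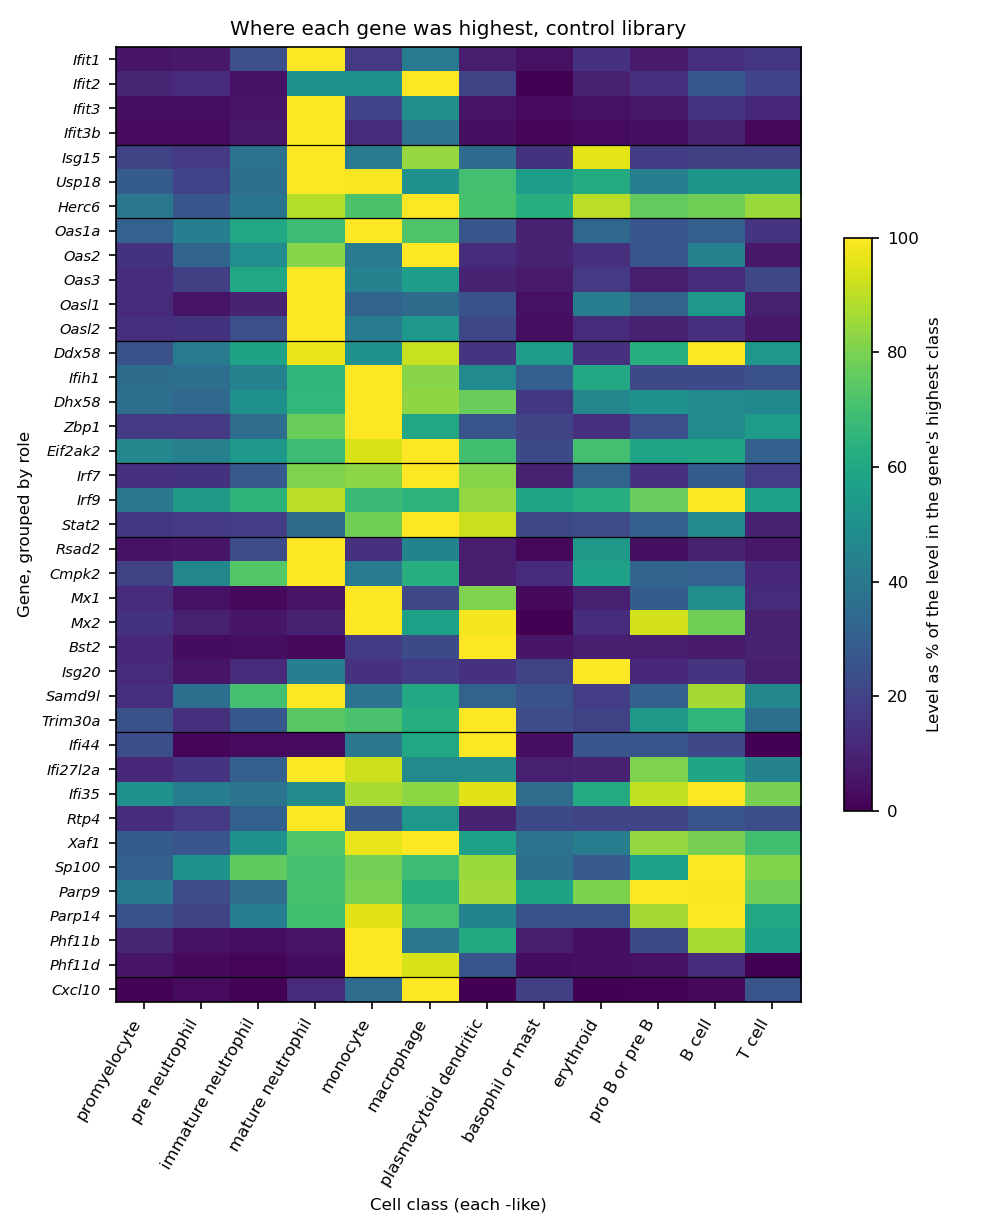
Control level of each of the 39 genes (rows) in 12 classes (columns), as a percent of the gene's highest class. Ifit1, Ifit3, Ifit3b, Oasl2, Rsad2 and Rtp4 reach their highest level in mature-neutrophil-like cells, Ifit2 in macrophage-like cells, Bst2 in plasmacytoid-dendritic-like cells and Isg20 in erythroid-like cells.

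Mature-neutrophil-like cells numbered 1556 in control and 1523 in MCAO. All 35 genes with at least 50 UMIs over both libraries had a lower level in the MCAO library, 12 of them by at least 1.5-fold, and none had a higher one. The median log2 ratio of MCAO over control was -0.45, against -0.02 over the 7684 genes tested in this class. Of those 7684 genes, 6.86% were at least 1.5-fold lower and 3.92% at least 1.5-fold higher in MCAO, and 52.8% were below 0. The summed level was 1.48-fold lower [1.46 to 1.49] in MCAO. In whole libraries, without classes, 39 of 39 genes were lower in MCAO, 16 by at least 1.5-fold (7.79% of all genes tested) and 0 were higher by as much (3.06% of all genes), with a median of -0.44. Without cluster 10 of the mature class, whose cells came mostly from the MCAO library, 12 of 35 genes were at least 1.5-fold lower (7.13% of all genes) and 0 higher (4.34%), with a median of -0.44. With finer clustering (Leiden resolution 2, 1544 control and 1206 MCAO mature cells) 34 of 35 genes were lower but only 5 by at least 1.5-fold (6.6% of all genes) and 0 higher (3.9%), with a median of -0.31. At that resolution a cluster of 19 control and 281 MCAO cells, led by the stefin A genes Stfa3 and Stfa1, was not in the mature class. It was named immature-neutrophil-like by score, with none of that class's markers among its 10 leading genes.

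The Ifit proteins bind viral RNA that lacks the host's cap marks, and all 4 of their genes were past 1.5-fold. Ifit3 held 9.39 [9.11 to 9.67] in control and 4.31 [4.13 to 4.48] in MCAO, 2.18-fold lower [2.07 to 2.29], and its UMIs were found in 63.4% and 37.6% of the cells. Ifit3b held 5.22 and 2.87, 1.82-fold lower [1.71 to 1.94]. Ifit1 held 6.61 and 4.24, 1.56-fold lower [1.47 to 1.64]. All 4 genes lie in 1 cluster on chromosome 19. Ifit1, Ifit3 and Ifit3b carry the response-element core, while neither of the 2 windows of Ifit2 holds a match. Ifit2 held 1.04 and 0.412, 2.53-fold lower [2.15 to 2.98]. Summed, the Ifit genes took 22.3 UMIs per 10000 in control and 11.8 in MCAO.

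Isg15 held 3.76 [3.59 to 3.95] in control and 2.13 [2.01 to 2.26] in MCAO, 1.76-fold lower [1.64 to 1.90]. Usp18, which removes Isg15 from proteins and dampens the receptor, held 1.15 and 0.761, 1.52-fold lower [1.33 to 1.73]. Herc6, the mouse ligase that attaches Isg15, held 0.477 and 0.472 with a ratio interval that includes 1. Of these 3 genes 2 were therefore past 1.5-fold.

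The oligoadenylate synthetase family makes, or is related to enzymes that make, the signal that activates RNase L. Oasl2 had the second highest level of the 39 genes in control, 16.5 [16.1 to 16.9] against 11.1 [10.8 to 11.4] in MCAO, 1.49-fold lower [1.44 to 1.54]. Oas2 held 1.82 and 1.16, 1.57-fold lower [1.41 to 1.74], and was the only 1 of the 5 past 1.5-fold. Oas3 held 5.22 and 4.13, Oasl1 2.04 and 1.41, and Oas1a 1.13 and 0.883. The family's summed level was 26.7 in control and 18.7 in MCAO.

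The sensors of nucleic acid were lower by less than 1.5-fold in all 5 cases, with a median log2 ratio of -0.50. Ddx58 (RIG-I) held 2.59 and 1.79, and Ifih1 (MDA5) 1.07 and 0.739. Eif2ak2, the kinase PKR that halts translation, held 1.97 and 1.5, and Zbp1, a sensor of Z-form nucleic acid, 1.49 and 1.04. Dhx58, a regulator of RIG-I-like sensors, held 0.504 and 0.443, with a ratio interval that includes 1.

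Among the transcription factors, Irf7, the main amplifier of interferon production, held 4.15 [3.96 to 4.34] in control and 2.37 [2.24 to 2.50] in MCAO, 1.75-fold lower [1.63 to 1.88]. Its partners in the pathway differed less, with Irf9 at 3.57 and 2.85 and Stat2 at 1.15 and 0.832.

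The antiviral effectors were lower by less than 1.5-fold in all 6 genes that passed the filter. Rsad2 (viperin), which makes a chain-terminating nucleotide, held 10.9 [10.6 to 11.2] in control and 8.33 [8.09 to 8.57] in MCAO, 1.31-fold lower [1.26 to 1.37]. Cmpk2, its neighbour on chromosome 12 and a nucleotide kinase, held 3.51 and 2.95. Samd9l, a translation inhibitor, held 7.34 and 5.78, and Trim30a 7.29 and 5.71. The exonuclease gene Isg20 held 2.21 and 1.80, and for Bst2 the ratio interval includes 1. Mx1 and Mx2, dynamin-like GTPases, had 30 and 24 UMIs in control and 18 and 13 in MCAO and did not pass the filter. The annotation lists Mx2 as a polymorphic pseudogene.

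Of the other induced proteins, Ifi27l2a had the highest level of all 39 genes in control, 19.9 [19.5 to 20.3] against 10.9 [10.7 to 11.2] in MCAO, 1.82-fold lower [1.76 to 1.88]. Rtp4, a chaperone for membrane receptors, held 10.2 and 6.33, 1.62-fold lower [1.55 to 1.69]. Parp14, an ADP-ribosyltransferase, held 1.52 and 0.925, 1.64-fold lower [1.46 to 1.84], and its relative Parp9 0.897 and 0.671. Ifi44 rested on 44 and 19 UMIs and was 2.79-fold lower [1.60 to 5.06]. Sp100 held 10.8 and 9.51, 1.13-fold lower [1.09 to 1.18], and Xaf1, an apoptosis factor, 1.13 and 0.861. For Ifi35 (0.532 and 0.472) and Phf11b (0.161 and 0.115) the ratio intervals include 1. Phf11d and the chemokine gene Cxcl10 had 13 and 27 UMIs in control and 7 and 4 in MCAO and did not pass.

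**Figure D3:**
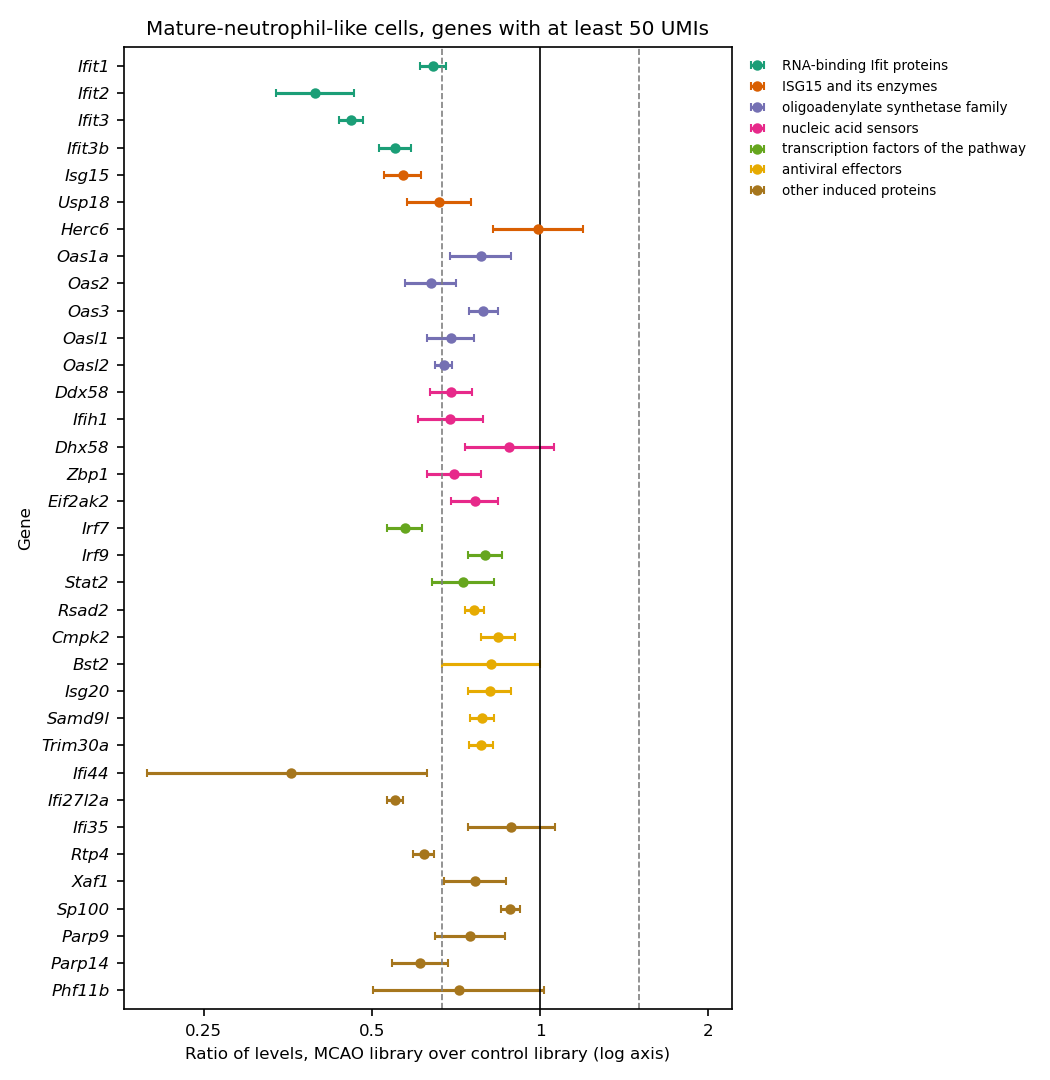
MCAO over control level in mature-neutrophil-like cells for the 35 genes with at least 50 UMIs, on a log axis with exact 95% intervals, coloured by role; dashed lines mark 1.5-fold either way. Every point lies below 1, and the 12 genes past the lower line include all 4 Ifit genes, Isg15, Irf7, Ifi27l2a and Rtp4.

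The mature class was made of 3 clusters in different proportions. Cluster 1, led by Il1b, Hcar2 and, though left out of the clustering, Ifit3 and Ifit3b, held 55.5% of the control and 31.8% of the MCAO cells. Cluster 2, led by Gpr27, Retnlg, Mmp8 and Mmp9, held 42.7% and 44.1%. Cluster 10, led by stefin A genes and with 27 control cells, held 1.74% and 24%. Within cluster 1 the summed level was 201 [199 to 203] in control and 160 [157 to 162] in MCAO, and within cluster 2 it was 109 [108 to 111] and 80.0 [79.0 to 81.0]. In cluster 1 alone 5 of 34 genes were at least 1.5-fold lower (7.42% of all genes) and 0 at least 1.5-fold higher (6.39%), with a median of -0.20, and in cluster 2 alone 9 of 34 (5.99%) and 0 at least 1.5-fold higher (4.81%), with a median of -0.44. Ifit3 held 16.8 and 11 in cluster 1 and 4.07 and 2.07 in cluster 2. Rsad2 held 15.2 and 13.6 in cluster 1. In cluster 10, with its 27 control cells, 22 of 30 genes were at least 1.5-fold lower (15.4% of all genes), 2 at least 1.5-fold higher (26.2%) and the median was -0.97. The summed level was lower in MCAO within each cluster, and the median within cluster 1 was nearer to 0 than in the class as a whole.

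The transcripts were also compared cell by cell after each cell was thinned to 1000 UMIs, which left out 45 control cells and no MCAO cell. At least 5 UMIs of the 39 genes were found in 95.2% of control cells [94.0 to 96.3] and 73.7% of MCAO cells [71.4 to 75.9], and without thinning in 99.3% and 97.0%. The median was 14 UMIs per cell in control and 8 in MCAO, the 10th percentile 6 and 2 and the 90th percentile 31 and 24. The variance over the mean was 7.40 in control and 8.99 in MCAO, around means of 16.7 and 11.1 UMIs, so the spread was higher in MCAO relative to the mean only, and the range from the 10th to the 90th percentile was narrower. The variance over the mean was higher in MCAO in 10 of the 12 classes, the exceptions being T-cell-like and basophil-or-mast-like cells. In basophil-or-mast-like cells, the class with few of these transcripts, the thinned share was 20% [10.4 to 33] in control and 24% [13.1 to 38.2] in MCAO.

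**Figure D4:**
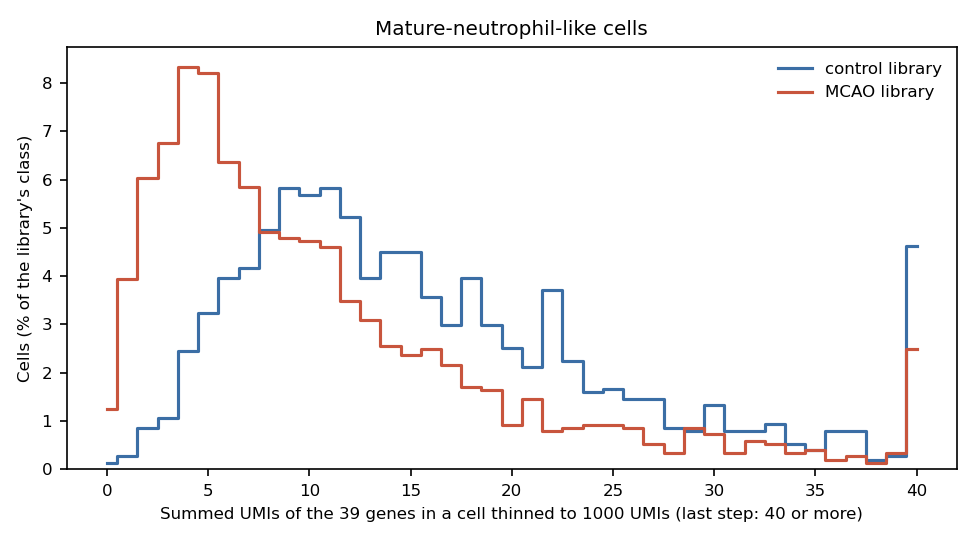
Percent of mature-neutrophil-like cells (vertical axis) by the summed UMIs of the 39 genes after thinning to 1000 UMIs (horizontal axis, last step 40 or more), control in blue and MCAO in red. The MCAO cells peak at lower sums, with a median of 8 against 14, and both libraries keep a tail of cells with many UMIs.

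In the other classes most genes were again lower in MCAO. The 12 classes gave 383 pairs of a gene and a class with enough UMIs, and the ratio interval lay below 1 in 269, above 1 in 2 and across 1 in 112. Over all genes, 12.9% of 82761 such pairs lay below 1 and 10.8% above it. In monocyte-like cells 39 of 39 genes were lower and 21 at least 1.5-fold lower (5.04% of all genes) and 0 at least 1.5-fold higher (4.92%), with a median of -0.58. In the same cells the 6 granule-stage neutrophil genes held 41.4 and 68.2, with 5 at least 1.5-fold higher, and the 10 immediate early genes 38.4 and 26.6, all lower and 5 at least 1.5-fold lower. Their part in the result was not tested. Ifi44, an interferon-induced protein gene, held 1.26 and 0.280 there, 4.50-fold lower [3.81 to 5.33]. It was lower both in cluster 3 (2.16 and 0.450) and in cluster 8 (0.599 and 0.115). Ifit3b held 0.640 and 0.270 and Mx2 0.558 and 0.248. The genes of highest level were Ifi27l2a (18.3 and 11.8), Sp100 (12.1 and 9.79), Trim30a (6.97 and 4.76) and Oasl2 (6.79 and 4.33).

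In macrophage-like cells 27 of 32 genes were lower and 19 at least 1.5-fold lower, in a class where 15.8% of all genes were, and 0 at least 1.5-fold higher (8.65%), with a median of -0.68. The mature neutrophil markers Mmp9, Cxcr2, Retnlg and Csf3r together held 148 in control and 94.8 in MCAO macrophage-like cells. The 6 granule-stage neutrophil genes went the other way there, from 364 to 639, with 5 of 6 at least 1.5-fold higher. The part of neutrophil RNA in the macrophage values was not tested. Phf11b held 1.12 and 0.375, Ifit3b 2.0 and 0.779, and Oas2 2.22 and 0.923, 2.40-fold lower [1.59 to 3.72]. The highest levels were those of Sp100 (10.5 and 8.83), Ifi27l2a (9.41 and 5.51), Oasl2 (8.80 and 4.96) and Trim30a (6.09 and 4.10). In plasmacytoid-dendritic-like cells 31 of 35 were lower and 7 at least 1.5-fold lower (7.51% of all genes) and 1 at least 1.5-fold higher (7.07%), with a median of -0.29. With the mixed class split at resolution 2, the median was -0.35 in the plasmacytoid-dendritic-like and -0.62 in the conventional-dendritic-like cluster. In the unsplit class the highest after Bst2 were Sp100 (13 and 10.7), Trim30a (9.77 and 8.01) and Ifi27l2a (9.63 and 8.26). Ifit1 held 0.551 and 0.274 and Oasl1 0.514 and 0.266. Cmpk2 went the other way, at 0.294 in control and 0.598 in MCAO from 24 and 72 UMIs. At resolution 2 the higher Cmpk2 level was found in the conventional-dendritic-like cluster (15 and 64 UMIs), while in the plasmacytoid-dendritic-like one it had 18 and 16 UMIs, levels of 0.346 and 0.272, with a ratio interval that includes 1.

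Of the neutrophil precursors, promyelocyte-like cells had 34 of 36 genes lower and 15 at least 1.5-fold lower (5.07%) and 0 at least 1.5-fold higher (3.81%), with a median of -0.48. Sp100 (4.72 and 4.2), Trim30a (2.42 and 1.89), Ifi27l2a (2.30 and 0.990) and Oasl2 (2.25 and 1.22) were highest, and Irf7 held 0.721 and 0.306, 2.36-fold lower [1.87 to 2.97]. Ifit3b held 0.148 and 0.0440 from 38 and 19 UMIs. In pre-neutrophil-like cells 31 of 34 were lower and 16 at least 1.5-fold lower (3.6%) and 0 at least 1.5-fold higher (4.45%), with a median of -0.54. Sp100 (7.86 and 6.26), Samd9l (2.65 and 2.44) and Irf9 (2.13 and 1.44) were among the highest. Ifi27l2a held 3.01 and 1.26, Oasl2 2.40 and 1.02, and Rtp4 1.70 and 0.865. In immature-neutrophil-like cells 30 of 34 were lower and 7 at least 1.5-fold lower (4.87%) and 0 at least 1.5-fold higher (3.9%), with a median of -0.27. Sp100 (11.5 and 10.6), Samd9l (5.18 and 4.41) and Oasl2 (4.06 and 2.59) were among the highest, Ifi27l2a held 6.08 and 3.07, Ifit3 0.575 and 0.321, and Parp14 0.931 and 0.557.

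In B-precursor-like cells 35 of 37 genes were lower. Of the 37, 22 were at least 1.5-fold lower (9.87%) and 0 at least 1.5-fold higher (6.59%), with a median of -0.64. In 8 alternative runs this median lay between -0.65 and -0.41. The class pooled clusters 6 (515 control and 115 MCAO cells), 13 (160 and 61) and 19 (58 and 29). Their median UMIs per cell were 1812 and 1808, 5362.5 and 6857, and 2948.5 and 5485. Thinned to 1000 UMIs, cells of the class held a mean of 7.37 response-gene UMIs in control and 5.78 in MCAO. The part of cluster make-up in the differences of this class was not tested. Ifi27l2a (16.0 and 9.72), Sp100 (8.72 and 6.30), Trim30a (5.27 and 4.55) and Irf9 (3.03 and 2.27) were highest, while Ifit3 held 0.608 and 0.257, Usp18 0.492 and 0.229, and Oas2 0.588 and 0.286. In B-cell-like cells 35 of 37 were lower and 10 at least 1.5-fold lower (6.18%) and 0 at least 1.5-fold higher (4.55%), with a median of -0.31. Ifi27l2a held 11.7 and 7.05, Trim30a 6.40 and 5.63, Samd9l 6.34 and 5.85, Bst2 1.36 and 0.772, Oas2 0.972 and 0.50, and Mx2 0.440 and 0.243. In T-cell-like cells 19 of 20 were lower and 6 at least 1.5-fold lower (11.4%) and 0 at least 1.5-fold higher (7.87%), with a median of -0.41. Sp100 (12.4 and 11.8), Ifi27l2a (8.86 and 5.38), Trim30a (3.57 and 3.03) and Samd9l (3.39 and 2.44) were highest there, and Ifit3 held 1.06 and 0.477, Ifit1 1.04 and 0.589, and Xaf1 1.09 and 0.645. Basophil-or-mast-like cells had only 9 genes with enough UMIs, 7 of them lower and 3 at least 1.5-fold lower (9.56%) and 1 at least 1.5-fold higher (8.76%). Sp100 held 5.61 and 5.39, Irf9 2.33 and 2.30, Trim30a 2.33 and 1.90, Rtp4 2.30 and 1.03, and Bst2 1.13 and 0.634. Samd9l was higher in MCAO, at 1.84 and 3.05 from 60 and 77 UMIs.

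**Figure D5:**
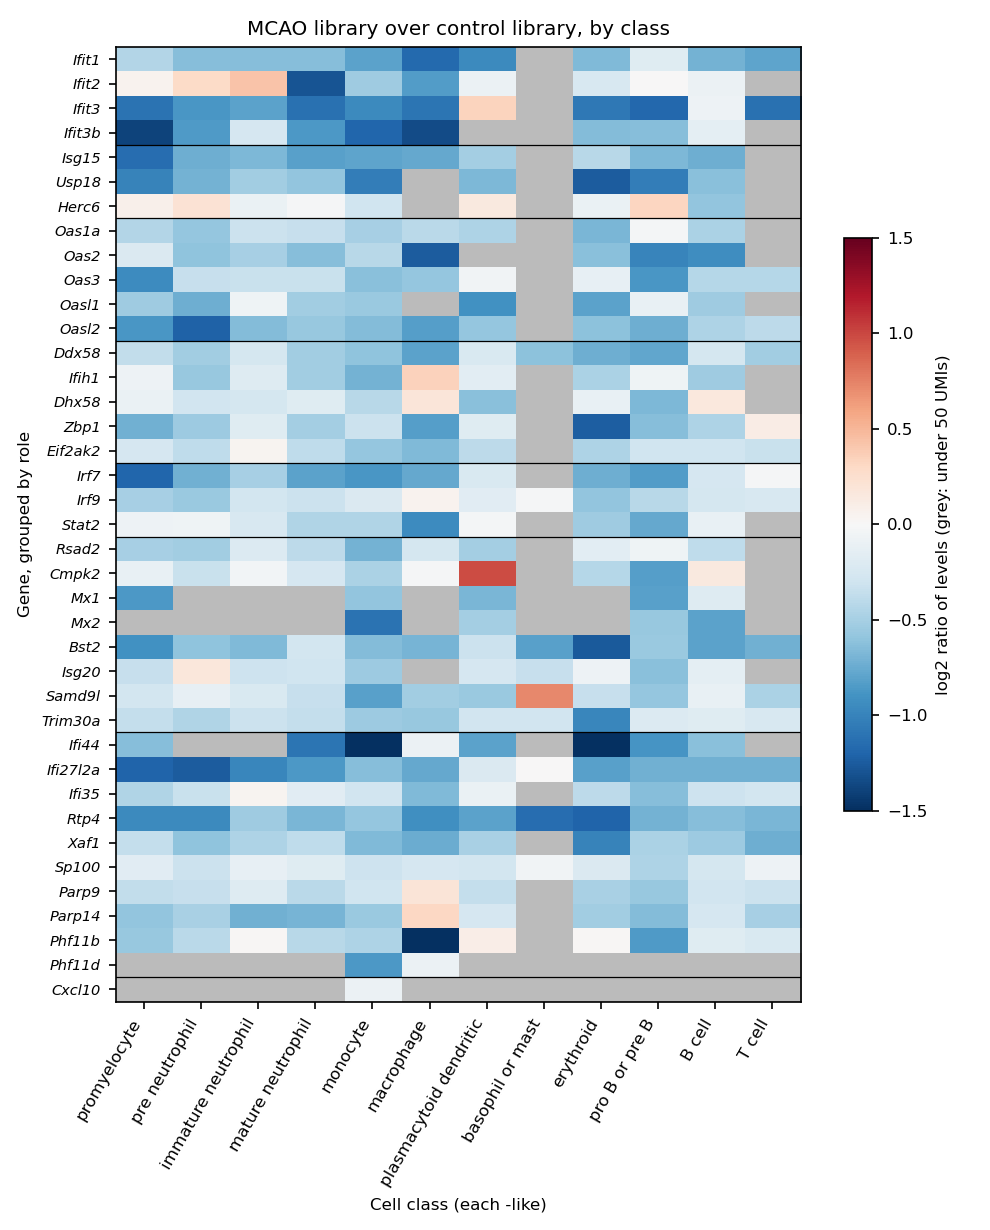
Log2 ratio of MCAO over control for each of the 39 genes (rows) in 12 classes (columns), with colours ending at -1.5 and 1.5 and grey where a gene had under 50 UMIs. Most coloured cells lie below 0, and the ratio interval lay above 1 only for Cmpk2 in plasmacytoid-dendritic-like cells (a class that also holds conventional-dendritic-like cells) and Samd9l in basophil-or-mast-like cells.

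Erythroid-like cells had another leading set: Rsad2 (5.89 and 5.29), Isg20 (5.18 and 4.92), Sp100 (4.37 and 3.77) and Isg15 (3.6 and 2.69). Of 35 genes 34 were lower in MCAO and 18 at least 1.5-fold lower (5.65%) and 0 at least 1.5-fold higher (3.42%), with a median of -0.59. Ifi44 held 0.840 and 0.190, 4.42-fold lower [3.38 to 5.85], Bst2 1.54 and 0.634, and Usp18 0.712 and 0.287. Cluster 21, singled out after its values were seen and led by Tmcc2, Slfn14, Bpgm and Hba-a2, held 21 of the 207 control and 52 of the 322 MCAO cells of the class. In it Rsad2 took 91.8 UMIs per 10000 [84.6 to 99.4] in control and 47.9 [45.0 to 51.0] in MCAO, and every cell of both libraries held its UMIs. Isg15 took 21.6 and 11.6 there, and Isg20 13.6 and 14.5. These levels of Rsad2 lie above its level in mature-neutrophil-like cells. The levels of Rsad2 given for the whole erythroid-like class include this small cluster, and its part in them was not counted.

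RNA released by broken cells can carry UMIs into other classes. In 8 classes, all but the macrophage-like and the 3 later neutrophil stages, the median share of the mature-neutrophil level that Mmp9, Cxcr2, Retnlg and Csf3r reached was 2.19 to 5.65%, and in macrophage-like cells it was 29.5% in control and 17.1% in MCAO. Ifit3b lay at or below the highest of these marker shares in promyelocyte-, monocyte-, macrophage-, plasmacytoid-dendritic-, basophil-, erythroid-, B-precursor- and T-cell-like cells. Its values there may be background, which was not tested. The highest share can rest on 1 marker. In monocyte-like cells Csf3r reached 12.9% in control and 12.3% in MCAO, beside marker medians of 3.42% and 3.65%. Rsad2, Ifit1 and Ifit3 did so in promyelocyte-like cells, and in the MCAO library also Oas3, Ifi27l2a and Rtp4. Csf3r again set the highest share there, at 9.09% in control and 10.7% in MCAO, beside medians of 3.53% and 3.24%. Whether the MCAO level of Ifi27l2a printed for that class is background was not tested. Ifit1, Isg20 and Oasl1 did so in macrophage-like cells, Rsad2 in MCAO monocyte-like and control B-precursor-like cells, and Ifit3 in MCAO erythroid-like cells. In T-cell-like cells Ifi44 and Phf11d did so in control, and Rsad2, Oasl2, Oas2, Mx2, Dhx58, Phf11d and Cxcl10 in MCAO. The same held for 12 genes in control and 14 in MCAO in basophil-or-mast-like cells. Cxcr2 set the highest share in that class, at 12.2% and 16.8%, beside marker medians of 3.13% and 2.64%.

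Among mature-neutrophil-like cells the genes that varied most like the summed 39, over 2747 genes, were Slfn4 (r = 0.52 over 1511 control cells and 0.60 over 1523 MCAO cells), Slfn5 (0.48 and 0.57) and Ly6e (0.45 and 0.40). Next came Ifi204, Slfn8, Gm8995, H2-D1, Trim30d, Irgm1 and Fgl2, with r from 0.25 to 0.40. Of these 10 genes 8 were among the 134 interferon-inducible genes left out of the clustering, a list chosen by name from the 25943 measured genes. How many of the 2747 genes were on that list was not counted, so the 8 have no share to stand beside. The cells share a library and the thinned depth, so r is a description. Slfn4, a Schlafen family gene, held 63.5 in control and 38.6 in MCAO. The lowest r were those of the granule genes Lcn2 (-0.42 and -0.30) and Ngp (-0.46 and -0.26). Among the 39 themselves, Ifit3 varied most with the summed others (0.59 and 0.56), and Sp100 little (0.11 and 0.21).

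In mature-neutrophil-like cells the receptors, kinases and transcription factors, sensors and negative regulators had group medians nearer to 0 than the -0.45 of the 39 genes. Single genes of these groups were not all closer between the libraries. Of all genes tested in this class, 6.86% were at least 1.5-fold lower and 3.92% at least 1.5-fold higher in MCAO. Of the 20 listed type I and III interferon genes only 1, Ifnz, was among the measured genes, with 0 UMIs in this class in either library. The levels of the other interferon genes could therefore not be assessed. Of 6 receptor genes, for type I, II and III interferon, 3 were below and 3 above 0, with none past 1.5-fold and a median of -0.01. Ifnar1 held 0.539 and 0.412, and Ifnar2 0.598 and 0.607. Of 10 kinases and transcription factors outside the 39 genes, 6 were below 0 and none past 1.5-fold, with a median of -0.08. Irf2 held 5.67 and 4.67, and Jak1 4.77 and 4.37. Of 8 sensors and adaptors that passed the filter 1 was at least 1.5-fold higher, Mb21d1 (cGAS), with 19 and 43 UMIs. Of 8 negative regulators 5 were below 0 and 1 at least 1.5-fold lower, Ptpn2 (0.303 and 0.186). Of 7 genes best known for induction by interferon gamma that passed, 6 were below 0, with a median of -0.35. Among them 3 were at least 1.5-fold lower: Ifi47 (0.908 and 0.50), Irgm1 (1.45 and 0.923) and Nlrc5 (0.350 and 0.221). Ifng itself had 31 and 20 UMIs in whole libraries.

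Other gene groups differed between the libraries in the same mature-neutrophil-like cells. The 4 haemoglobin genes took 9.09 UMIs per 10000 in control and 16.5 in MCAO, the 10 B-cell development genes 1.61 and 0.675, and the 10 immediate early genes 51.3 and 40.6. The 5 genes of the mature stage took 92.2 and 82.0, all lower in MCAO, and the 6 of the granule stage 389 and 392. The part of these differences in the lower response-gene levels was not tested.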

How the data were processed

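Cells of 1 control and 1 MCAO marrow library were analysed. Per the submitters' processing notes, fastp, STAR, UMI-tools and Seurat 4.0.6 were used with build mm10; the order and settings are not given in the labels. The authors deposited natural log values, ln(1 + 10000 × UMI share) per gene and cell, and whole UMIs were recovered from all of them. The planned use of summed UMIs was kept. Levels are UMIs summed per class and library, with exact Poisson intervals, and ratios have exact conditional intervals. Log2 ratios used a pseudocount of 0.02 per 10000, and genes needed 50 UMIs over both libraries. Cells were clustered on 2000 variable genes, 30 principal components and 20 neighbours with Leiden at resolution 1 (leidenalg 0.10.2, igraph 0.11.9, scikit-learn 1.9.0, numpy 2.4.6, scipy 1.17.1), giving 25 clusters. Clusters were named from 19 marker sets, with at least 3 markers detected in 20% of cells. Clusters 10, 13 and 17 were named by score with none of their markers among their 10 leading genes. Marked doublets, 37 in control and 45 in MCAO, were kept. The libraries share 5120 cell name endings, which are running codes.

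With 1 library per group no test was made. Intervals cover counting error only, and UMIs of 1 cell are not independent of each other. Counts for mature-neutrophil-like cells were also simulated with counting error only, for 6092 genes, 200 of them changed 2-fold up or down. Of the changed genes 98% passed 1.5-fold, and 95.2% of all intervals held the true ratio. Smaller changes were not simulated. The intervals assume the same counting error, so their share was set by the design and does not cover spread between real cells. The 39 genes, the lists, the marker scoring and the comparisons were chosen with earlier results of these data known. Named are every gene with 50 UMIs in mature-neutrophil-like cells and, in each other class, the 4 of highest level and the 3 furthest from a log2 ratio of 0. Alternatives changed scaling, depth, thinning, doublets, clustering, filter and pseudocount, and leaving out cluster 10 and splitting the dendritic cells at resolution 2 were added after seeing the data.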

Additional observations from a re-analysis of the deposited data

Results flagged for a closer look

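2 genes had a higher level in the MCAO library in 1 class, with a ratio interval above 1, and a lower level in another. Cmpk2 was 2.04-fold the control level in plasmacytoid-dendritic-like cells, from 24 control and 72 MCAO UMIs, and 0.556-fold in B-precursor-like cells. That class also held conventional-dendritic-like cells, and with these apart at clustering resolution 2 the fold was 0.785 in plasmacytoid-dendritic-like and 2.43 in conventional-dendritic-like cells. Samd9l was 1.66-fold the control level in basophil-or-mast-like cells, from 60 and 77 UMIs, and 0.567-fold in monocyte-like cells. The difference between the classes was not tested for either gene.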

How the results depend on the processing

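No paired analysis was possible because each group has 1 library, and no library could be left out. In mature-neutrophil-like cells the median log2 ratio moved from -0.45 to -0.31 at clustering resolution 2 and -0.20 in cluster 1 alone. The number of genes at least 1.5-fold lower moved from 12 to 5 in both. At resolution 2 a stefin A cluster of 19 control and 281 MCAO cells was named immature-neutrophil-like and so lay outside the mature class. The cause of these shifts was not tested. The difference in the share of cells with at least 5 UMIs, -21.6 percentage points, was -9.97 for at least 3 UMIs, -29.5 for at least 10, -6.61 thinned to 2000 UMIs, -2.25 without thinning, -17.1 at resolution 2 and -15.1 in cluster 1. Both the median and this difference kept their direction under each alternative run, and 0 genes were at least 1.5-fold higher in each. For single genes 334 values stayed within the interval of the ratio, 73 moved beyond it and 13 changed sign. The log2 ratio of Herc6 was 0.00436 after centring on all genes, 0.0427 in cells of at least 2000 UMIs, 0.0660 after thinning, 0.18 at resolution 2, 0.53 in cluster 1, 0.0016 in cluster 2 and 0.15 without cluster 10. Ifi35 was at 0.0288 in cells of at least 2000 UMIs and 0.19 in cluster 2, and in cluster 1 Isg20 was at 0.21, Dhx58 at 0.0573, Bst2 at 0.16 and Phf11b at 0.14. The other 29 of 35 genes kept their sign, and the medians of the other 11 classes kept their direction in all 85 recomputed values.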
